A study of Caenorhabditis elegans with 6 samples.

Results

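The astacins of *C. elegans* are a family of zinc metalloproteases, most of them secreted, and the genes named *nas* (nematode astacin) followed by a number make up nearly all of it. Members were taken by name from the deposited expected counts: 36 protein-coding genes named *nas* and a number, of 20191 protein-coding genes. A further gene of this name, *nas-40*, is listed as a pseudogene, had no counts in any library and was left out. The genes *hch-1*, *dpy-31* and *toh-1* also encode astacins but carry other names, and they are described with the genes of moulting.

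Astacins hold a catalytic zinc ion in a conserved protease domain, are made with a propeptide that keeps them inactive, and act mostly outside the cell. In nematodes they are known for cutting extracellular matrix. NAS-36 and NAS-37 are needed to shed the old cuticle at each moult, DPY-31 trims the C-terminal end of a cuticle procollagen, HCH-1 helps the embryo leave the eggshell, and NAS-6 and NAS-7 shape the grinder of the pharynx. The family is sorted by domain layout into 6 subgroups. Subgroup I (*nas-1* to *nas-5*) has little beside the protease domain, II (*nas-6* to *nas-15*) adds small cysteine-rich ShK domains, III (*nas-16* to *nas-30*) adds EGF and CUB domains, IV (*nas-31* and *nas-32*) joins both kinds, V (*nas-33* to *nas-38*) adds a thrombospondin repeat, and VI (*nas-39*) is the relative of vertebrate BMP1 and tolloid. Dauer is a non-feeding, arrested larval stage with a cuticle of its own.

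Dauer larvae of 2 genotypes were compared as whole animals by mRNA-seq, with 3 libraries deposited for each. The *daf-16(0)* larvae were *daf-16(mgDf50); daf-7(e1372)* and the control larvae were *daf-7(e1372)*. Both thus carry the temperature-sensitive *daf-7(e1372)* allele that sends larvae into dauer, and the *daf-16(0)* larvae also lack the only FOXO transcription factor of the worm through a large deletion. Embryos were isolated by bleaching and kept at 24°C for 52 h, and dauer larvae of both genotypes were then picked by hand, because part of the *daf-16(0)* animals do not enter dauer. The labels give 2 different names for the *daf-16(0)* strain. The study describes 2 biological replicates per genotype, and its deposited comparison took replicates 2 and 3 of *daf-16(0)* with replicates 1 and 2 of control, called here the 4 libraries. It left out *daf-16(0)* replicate 1 and control replicate 3, and no source used here says whether they are further biological replicates, so p-values measure the spread between these libraries.

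Protein-coding counts per library ran from 8633003 to 14754227 in *daf-16(0)* and from 8103809 to 17808557 in control. Levels are given as CPM, counts scaled to a library total of 1000000 after TMM normalization over the 6 libraries. The floor of detection was set at 3 counts, which came to 0.154 to 0.426 CPM, and it covers counting error only. *daf-16* itself had 40.3 to 63.5 CPM in *daf-16(0)* libraries, against 198 to 400 CPM in control libraries. The 24 collagens that the study lists as dauer-enriched summed to 91.5, 4039 and 5429 CPM in *daf-16(0)* replicates 1 to 3, against 36340 to 133196 CPM in control, and 3 of them were at 0 in *daf-16(0)* replicate 1, so the marker set of the labelled stage was lowest there. The 23 listed as adult-enriched summed to between 3816 and 10029 CPM in *daf-16(0)* and to between 185 and 827 CPM in control, with all 23 above the floor in each *daf-16(0)* library and 18 to 20 in the controls. The 31 sperm genes named *msp* summed to 133 to 699 CPM in *daf-16(0)* and to 5.24 to 25.5 CPM in control, where 10 to 25 of them were at 0. The 6 yolk genes summed to 13847 to 25620 CPM in *daf-16(0)*, against 322, 124 and 18356 CPM in control replicates 1 to 3. The hypodermal cuticle genes *dpy-7*, *rol-6*, *bli-1* and *bli-2* summed to 352 to 1136 CPM in *daf-16(0)* and to 10.7 to 56.5 CPM in control. The part of these differences in the astacin results was not tested, and in whole animals fewer cells of a type and less RNA per cell cannot be told apart.

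Of the 36 astacin genes, 32 had more than 3 counts in at least 1 library, 18 had more than 3 in every library, and 4 had none anywhere. Of the 36, 28 genes in the 4 libraries passed edgeR's filter on low counts, which keeps genes with enough reads in as many libraries as the smaller group holds, and in all 6 libraries 27 did. Genes that are low in both genotypes are therefore missing from the counts of tested genes. The filter also took out genes with few counts in *daf-16(0)* and none in the controls compared, such as *nas-20* in the 4 libraries and *nas-22* in all 6. It thus bears on the number called higher. To be called, a gene had to change at least 2-fold and to reach an adjusted p no larger than 0.05 (edgeR's quasi-likelihood fit, Benjamini-Hochberg adjustment over all protein-coding genes tested). SE is the standard error of a log2 fold change.

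The called astacin genes were all lower in *daf-16(0)* dauer larvae. With the 4 libraries these were 7 genes: *nas-4*, *nas-10*, *nas-23*, *nas-28*, *nas-30*, *nas-31* and *nas-38*. Calls of lower expression took 9.58% of all genes tested in the same comparison. In all 6 libraries 5 astacin genes were called lower, *nas-4*, *nas-10*, *nas-23*, *nas-28* and *nas-31*, each of which was also among the 7, beside 7.39% of all genes tested. With the edgeR filter and fit named above, no astacin gene was called higher in either set of libraries, where 5.34% and 5.07% of all genes tested were. At an unadjusted p under 0.05 by edgeR, 4 astacin genes were higher in the 4 libraries and 2 in all 6. DESeq2 called 4 higher in the 4 libraries (10.6% of all genes it tested) and 3 in all 6 (10.1%), and those genes are described below with their counts. It called 8 lower in the 4 libraries, the 7 and *nas-27* (13.6% of all genes it tested), and 7 lower in all 6 (11.8%). Leaving out *daf-16(0)* replicate 2 left 3 of the 7 called lower in the 4 libraries, and leaving out control replicate 1 gave 4 called higher. In all 6 libraries 8 were called lower without control replicate 3 and 2 or 3 without any 1 of the other libraries, and up to 2 were called higher. The share of all genes called was not counted with a library left out in either set, so these counts have no share to stand beside. Signs were evenly divided, with 14 positive and 14 negative log2 fold changes in the 4 libraries and 13 positive and 14 negative in all 6. The median log2 fold change of the tested astacin genes was -0.21 in the 4 libraries, also -0.21 with *nas-22* set to its bound against controls at 0, and the median of all genes tested was 0.11. Over all 6 libraries the medians were -0.04 for the astacin genes and 0.09 for all genes.

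**Figure D1:**
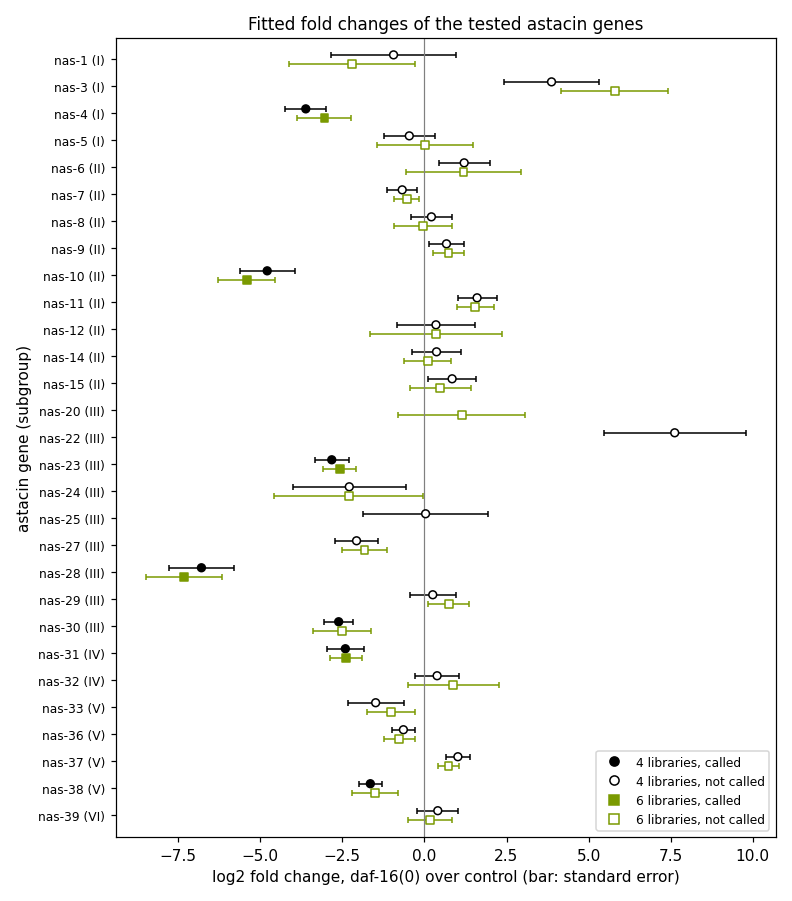
Log2 fold change of *daf-16(0)* over control (x axis) for each astacin gene that edgeR tested (y axis, with its subgroup), from the 4 libraries (circles) and from all 6 libraries (squares), with bars for the SE and filled symbols for called genes. The 7 filled circles and 5 filled squares all lie left of 0, and the value of *nas-22* is a fit against controls with no counts.

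The leading genes in the summed CPM of the 36 *nas* genes differed between the genotypes, apart from *nas-37* in control replicate 3. Summed over the 36 genes, astacin transcripts came to 325, 450 and 473 CPM in *daf-16(0)* replicates 1 to 3, against 803, 836 and 427 CPM in control replicates 1 to 3. The means were 416 ± 79.6 and 689 ± 227 CPM (SD, n = 3 each), and the groups overlapped, since control replicate 3 lay below 2 of the *daf-16(0)* libraries. The 7 genes called lower in the 4 libraries held 12.9%, 15.2% and 21.9% of the summed astacin CPM in *daf-16(0)*, and 64.9%, 75.3% and 57.3% in control, a description of the genes the test had picked. The remaining 29 genes summed to 283, 382 and 369 CPM in *daf-16(0)* and to 281, 207 and 183 CPM in control. Among the 36 genes, the leading pair in each *daf-16(0)* library was *nas-11* and *nas-37*. *nas-30* led in control replicates 1 and 2, and *nas-10* in control replicate 3, where *nas-37* came second with 13.3% of the sum. The astacins with other names are outside these sums and ranks. Of them, *dpy-31* had 65.5 to 82.2 CPM in *daf-16(0)* and 126 to 169 CPM in control. *toh-1* had 27.2 to 68.7 CPM in *daf-16(0)* and 45.1 to 200 CPM in control.

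**Figure D2:**
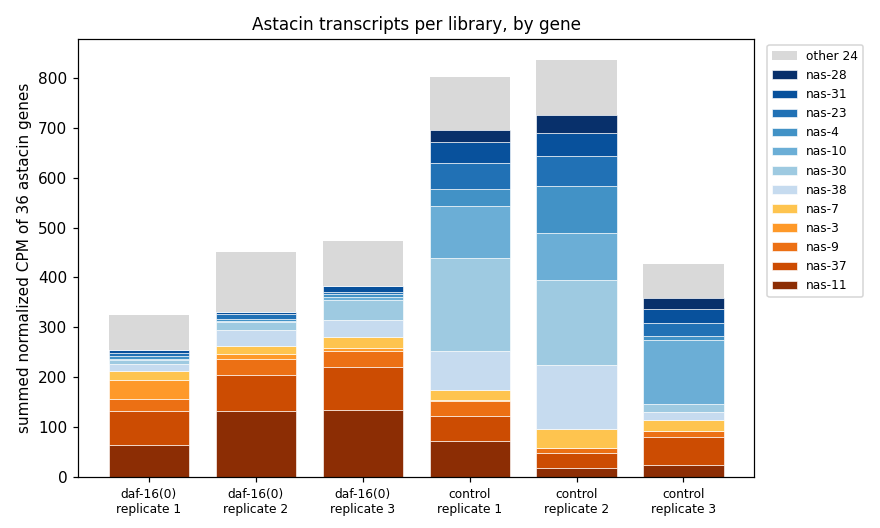
Summed normalized CPM of the 36 astacin genes (y axis) in each library (x axis), stacked by gene, with 12 genes in colour and the other 24 in grey. Blues mark the 7 genes called lower in the 4 libraries, which take most of each control bar and at most 21.9% of a *daf-16(0)* bar, and oranges mark genes not called.

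Per kilobase of annotated exon, so that genes of unlike length can be set side by side, the 5 most abundant members over the 6 libraries were *nas-11* (41.6 CPM per kb), *nas-10* (31.3), *nas-30* (24.95), *nas-37* (23.9) and *nas-38* (21.7). The mean level of *nas-11* was 62.0 CPM per kb in *daf-16(0)* and 21.3 CPM per kb in control. *nas-10* stood at 1.42 CPM per kb in *daf-16(0)*, against 61.1 CPM per kb in control, the highest control mean of the 36 *nas* genes. The exon length came from the Ensembl models and ran from 723 bases (*nas-18*) to 3480 bases (*nas-39*).

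Of the called genes, *nas-10* and *nas-28* differed most. *nas-10*, in subgroup II, lies on chromosome X from 10960982 to 10964725 on the reverse strand of WBcel235. It had 0.72, 0.77 and 6.03 CPM in *daf-16(0)* replicates 1 to 3, from 11, 7 and 79 counts, against 104, 92.9 and 127 CPM in control replicates 1 to 3, from 733, 815 and 2476 counts. Each *daf-16(0)* library was thus far below each control library, and control replicate 3 had the highest *nas-10* level of all. The means were 2.51 ± 3.05 and 108 ± 17.4 CPM (SD, n = 3 each). On the log2 scale *nas-10* differed by -4.79 (SE 0.83, edgeR adjusted p = 0.0175) in the 4 libraries and -5.41 (SE 0.87, edgeR adjusted p = 0.0112) in all 6. *nas-10* was called under every alternative tried, with edgeR or DESeq2 adjusted p-values in those alternatives of up to 0.0164 for the 4 libraries and up to 0.0497 for all 6. A tRNA gene and a non-coding RNA gene inside *nas-10* had no counts.

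*nas-28*, in subgroup III, lies on chromosome III from 6181078 to 6183218 on the reverse strand. It was at 0 in *daf-16(0)* replicates 1 and 2 and at 0.46 CPM (6 counts) in replicate 3, against 23.3, 36.9 and 21.3 CPM in control replicates 1 to 3, from 164, 324 and 416 counts. Transcripts of this gene were therefore near or under the floor in *daf-16(0)* and plainly detected in each control. With the libraries at 0 set to the floor of 3 counts per library, the mean of the controls was at least 82.9-fold higher. The fitted log2 fold changes, which depend on the prior count for a gene with zeros, were -6.79 in the 4 libraries (SE 0.98, edgeR adjusted p = 0.0112) and -7.33 in all 6 (SE 1.16, edgeR adjusted p = 0.011). The call held under every alternative tried, with adjusted p-values up to 0.0148 and 0.0488.

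Of the other subgroup III genes, *nas-23* (chromosome II, 7491399 to 7493699, reverse strand) had 7.51, 11.5 and 4.43 CPM in *daf-16(0)* replicates 1 to 3, against 52.8, 60.9 and 26.5 CPM in control replicates 1 to 3. The groups did not overlap. Its log2 fold change was -2.82 in the 4 libraries (SE 0.52, edgeR adjusted p = 0.0209) and -2.58 in all 6 (SE 0.50, edgeR adjusted p = 0.0185). The adjusted p by edgeR was above 0.05 when a library was left out, at 0.0505 without *daf-16(0)* replicate 3 in the 4 libraries and at 0.0538 to 0.0629 in all 6 without any 1 of the libraries other than control replicate 3, with log2 fold changes of -2.94 to -2.26.

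*nas-30* (chromosome I, 943664 to 947710, forward strand) was the most abundant of the 36 *nas* genes in control replicates 1 and 2. Its level was 8.55, 17.5 and 40.1 CPM in *daf-16(0)* replicates 1 to 3, against 187, 171 and 17.04 CPM in control replicates 1 to 3. Control replicate 3 thus fell among the *daf-16(0)* libraries. The 4 libraries gave a log2 fold change of -2.61 (SE 0.45, edgeR adjusted p = 0.0172), and it was -2.11 with an edgeR adjusted p of 0.0568 without *daf-16(0)* replicate 2. All 6 libraries gave -2.50 (SE 0.89, edgeR adjusted p = 0.102), and without control replicate 3 it was -3.01 with an edgeR adjusted p of 0.0161.

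*nas-27*, also in subgroup III, was not called. It had 2.35, 3.41 and 2.14 CPM in *daf-16(0)*, against 11.9, 11.6 and 4.57 CPM in control, with no overlap between the groups. It differed by -2.07 on the log2 scale (edgeR adjusted p = 0.0768) in the 4 libraries and -1.83 (edgeR adjusted p = 0.119) in all 6, and DESeq2 gave adjusted p-values of 0.0323 and 0.0405. Of the 27 astacin genes tested in all 6 libraries, 6 were lower in every *daf-16(0)* library than in every control library, an order found in 19.6% of all genes tested, and 2 were higher throughout, an order found in 21.3%.

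In subgroup IV, *nas-31* (chromosome V, 10918861 to 10921847, reverse strand) had 6.14, 4.07 and 12.3 CPM in *daf-16(0)* replicates 1 to 3, against 43.3, 45.4 and 29.1 CPM in control. The highest *daf-16(0)* library was below the lowest control. The 4 libraries put the log2 fold change at -2.41 (SE 0.56, edgeR adjusted p = 0.0381), and it was -2.38 in all 6 (SE 0.49, edgeR adjusted p = 0.0229). Without *daf-16(0)* replicate 2 the 4-library value was -1.81 with an edgeR adjusted p of 0.0923. In all 6 libraries the adjusted p was between 0.0649 and 0.0880 by edgeR without *daf-16(0)* replicate 1 or 2 or control replicate 1 or 2, at log2 fold changes of -2.30 to -2.07. Its subgroup partner *nas-32* was not called, with log2 fold changes of 0.39 and 0.88.

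*nas-4*, in subgroup I (chromosome III, 6411816 to 6414993, reverse strand), had 6.005, 3.96 and 6.33 CPM in *daf-16(0)* replicates 1 to 3, against 32.8, 95.0 and 7.70 CPM in control replicates 1 to 3. The *daf-16(0)* libraries were close together, and the controls spread over a wide range whose lowest library, replicate 3, was just above them. The log2 difference of *nas-4* was -3.61 in the 4 libraries (SE 0.62, edgeR adjusted p = 0.0170) and -3.05 in all 6 (SE 0.82, edgeR adjusted p = 0.0494). In the 4 libraries the adjusted p was 0.0616 by edgeR without *daf-16(0)* replicate 2. In all 6 it was between 0.0819 and 0.174 by edgeR without any 1 of the libraries other than control replicate 3, and the log2 fold change was nearest 0, at -1.91, without control replicate 2. *nas-4* shares 199 bases with *C05D11.5* on the same strand, whose own counts were 222, 149 and 170 in *daf-16(0)* and 73, 192 and 0 in control. The 0 was in the control where *nas-4* was lowest, and reads of the shared bases cannot be assigned to either gene by strand.

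*nas-38* belongs to subgroup V (chromosome X, 558141 to 563657, forward strand) and is known for its effect on the sleep-like quiescence of moulting larvae. It had 12.9, 30.7 and 34.2 CPM in *daf-16(0)* replicates 1 to 3, against 78.1, 127 and 16.2 CPM in control replicates 1 to 3. As with *nas-30*, control replicate 3 lay among the *daf-16(0)* libraries. From the 4 libraries the log2 fold change was -1.65 (SE 0.36, edgeR adjusted p = 0.0313). It lost the call without *daf-16(0)* replicate 2 (-1.55, edgeR adjusted p = 0.156), without *daf-16(0)* replicate 3 (-1.71, adjusted p = 0.106) and without control replicate 2 (-1.25, adjusted p = 0.0717). All 6 libraries gave -1.51 (SE 0.70, edgeR adjusted p = 0.189), and without control replicate 3 it was -1.98 with an edgeR adjusted p of 0.0258.

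**Figure D3:**
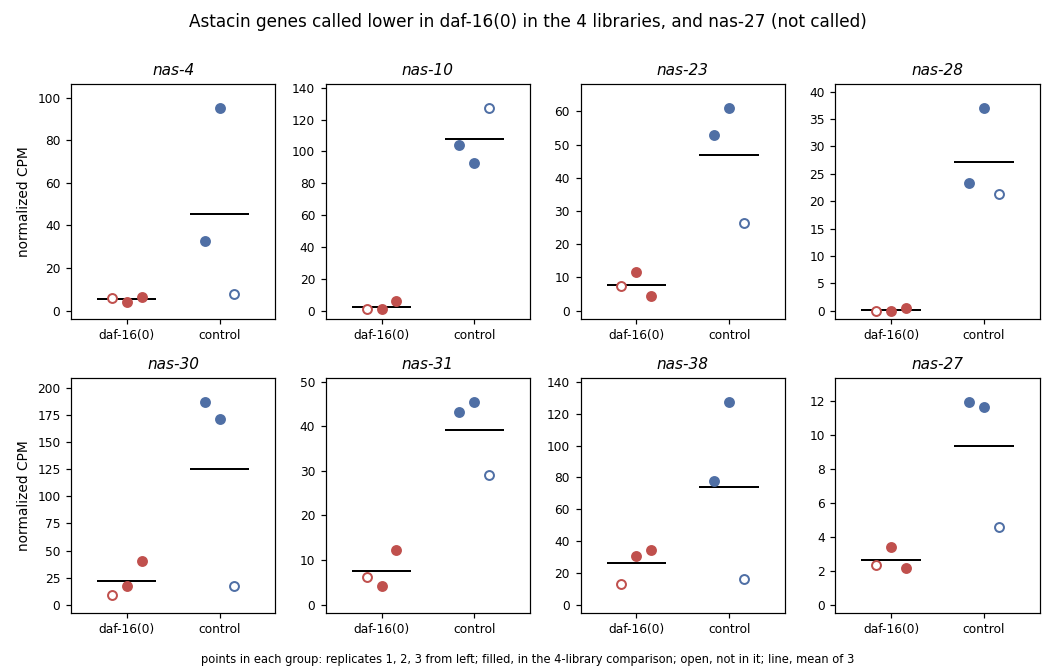
Normalized CPM (y axis of each panel, linear from 0) of the 7 astacin genes called lower in the 4 libraries and of *nas-27*, in the *daf-16(0)* and control libraries (x axis), with filled points for the 4 libraries, open points for the remaining ones and a line at the mean of 3. *nas-10* and *nas-28* separate the genotypes most widely, and the open control point lies among the *daf-16(0)* points for *nas-30* (17.04 CPM) and *nas-38* (16.2 CPM).

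The moulting proteases *nas-36* and *nas-37*, also in subgroup V, were detected in every library and were not called in either set. *nas-36* (chromosome I, 7527224 to 7531715, forward strand) had 6.98, 15.8 and 16.3 CPM in *daf-16(0)* replicates 1 to 3, against 23.3, 27.5 and 15.9 CPM in control. *nas-36* differed by -0.64 on the log2 scale (SE 0.36, edgeR adjusted p = 0.245) in the 4 libraries and -0.77 (SE 0.47, edgeR adjusted p = 0.307) in all 6. *nas-37* (chromosome X, 9944844 to 9949060, reverse strand) had 68.9, 72.7 and 85.9 CPM in *daf-16(0)*, against 50.7, 29.0 and 57.1 CPM in control. All its *daf-16(0)* values were above all its control values, by a log2 fold change of 1.02 (SE 0.36, edgeR adjusted p = 0.0985) in the 4 libraries and 0.73 (SE 0.33, edgeR adjusted p = 0.176) in all 6. Without control replicate 1 the 4-library value was 1.46 with an edgeR adjusted p of 0.0349. The 2 genes had log2 fold changes of opposite sign, and the difference between them was not tested. Within a library, the CPM of *nas-37* was 9.86, 4.59 and 5.26 times that of *nas-36* in *daf-16(0)* replicates 1 to 3 and 2.18, 1.05 and 3.59 times in control replicates 1 to 3, on a scale not corrected for length. *nas-33*, the remaining gene of subgroup V that carries a *nas* name, had log2 fold changes of -1.49 and -1.02 and was not called.

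*nas-11*, in subgroup II next to *nas-10* in number but on another stretch of chromosome X (6713577 to 6716381, forward strand), had 63.5, 133 and 134 CPM in *daf-16(0)* replicates 1 to 3, against 71.4, 18.5 and 23.5 CPM in control replicates 1 to 3. The groups overlapped through *daf-16(0)* replicate 1 and control replicate 1. The log2 fold change was 1.6 (SE 0.60, edgeR adjusted p = 0.110) in the 4 libraries and 1.55 (SE 0.57, edgeR adjusted p = 0.112) in all 6. DESeq2 called it in both sets (adjusted p = 0.0337 and 0.0348), and edgeR did so without control replicate 1 (2.86, adjusted p = 0.00189 in the 4 libraries, and 2.4, adjusted p = 0.0333 in all 6) and, in the 4 libraries, with no filter on low counts (1.6, edgeR adjusted p = 0.010). In the same library, the CPM of *nas-11* was 88.5, 173 and 22.3 times that of *nas-10* in *daf-16(0)* replicates 1 to 3, against 0.69, 0.20 and 0.18 times in control replicates 1 to 3. *nas-11* shares 24 bases with *smf-2* on the opposite strand, which had at most 5 counts in *daf-16(0)* libraries and 111 to 196 in controls. The kit used does not mark strand.

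*nas-3*, in subgroup I (chromosome V, 9478163 to 9479601, forward strand), was nearly absent from control dauer larvae. It had 38.6, 10.0 and 6.03 CPM in *daf-16(0)* replicates 1 to 3, from 591, 91 and 79 counts, against 8 counts (1.14 CPM) in control replicate 1 and none in control replicates 2 and 3. Each *daf-16(0)* library was above each control. With the controls at 0 set to the floor of 3 counts per library, the mean in *daf-16(0)* was at least 33.5-fold higher, and *daf-16(0)* replicate 1 held most of it. By edgeR the adjusted p was 0.114 in the 4 libraries (log2 fold change 3.87, SE 1.46) and 0.0539 in all 6 (5.79, SE 1.62). DESeq2 gave 0.0273 and 0.000404. By edgeR without control replicate 1, the only control with counts, it was 0.00860 in the 4 libraries and 0.0301 in all 6, and without control replicate 3 it was 0.0490 in all 6. With no filter on low counts edgeR gave 0.0315 and 0.0306.

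The pharyngeal pair *nas-6* and *nas-7* were not called. *nas-7* (chromosome II, 7400544 to 7402724, reverse strand) was well above the floor throughout, with 18.5, 15.6 and 21.1 CPM in *daf-16(0)* and 20.3, 38.9 and 21.2 CPM in control. Its log2 fold change was -0.68 (SE 0.45, edgeR adjusted p = 0.313) in the 4 libraries and -0.54 (SE 0.39, edgeR adjusted p = 0.380) in all 6. *nas-6* (chromosome IV, 17486871 to 17490779, reverse strand) varied far more between libraries of a genotype, with 0, 10.8 and 5.80 CPM in *daf-16(0)* replicates 1 to 3 and 2.27, 4.90 and 0.10 CPM in control replicates 1 to 3. It was at or under the floor in both libraries left out of the study's comparison. The pharyngeal muscle myosins *myo-1* and *myo-2* summed to 196 to 681 CPM in *daf-16(0)* and to 289 to 637 CPM in control, with *daf-16(0)* replicate 1 the lowest of the 6 libraries. The 6 pharyngeal gland genes *phat-1* to *phat-6* summed to 30.3, 141 and 99.7 CPM in *daf-16(0)* replicates 1 to 3 and to 59.8, 73.0 and 20.2 CPM in control replicates 1 to 3, so that the lowest sums were in the same libraries where *nas-6* was lowest, and their part in its values was not tested. The log2 fold change of *nas-6* was 1.21 (SE 0.77, edgeR adjusted p = 0.298) in the 4 libraries and 1.19 (SE 1.76, edgeR adjusted p = 0.682) in all 6.

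*nas-39*, the BMP1 and tolloid relative (chromosome X, 16456927 to 16471325, forward strand), was low throughout. It had 3.00, 8.46 and 6.71 CPM in *daf-16(0)* replicates 1 to 3, against 5.54, 6.04 and 4.62 CPM in control, and log2 fold changes of 0.41 (SE 0.62, edgeR adjusted p = 0.667) in the 4 libraries and 0.17 (SE 0.67, edgeR adjusted p = 0.889) in all 6. The sign in all 6 libraries was reversed without *daf-16(0)* replicate 2 (-0.13). It was the only member with expected counts that were not whole, and it shares 268 bases with *F38E9.1* on the same strand, which had 91, 73.55 and 175 expected counts in *daf-16(0)* and 56, 37 and 297 in control.

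*nas-8* changed sign between the sets, with log2 fold changes of 0.21 (SE 0.62) in the 4 libraries and -0.04 (SE 0.88) in all 6. Its levels were 1.17, 8.68 and 14.7 CPM in *daf-16(0)* and 6.39, 13.9 and 4.93 CPM in control, so that the groups overlapped. *nas-9* had 24.0, 32.1 and 32.7 CPM in *daf-16(0)* and 30.9, 10.6 and 12.0 CPM in control, with a log2 fold change of 0.67 (edgeR adjusted p = 0.389) in the 4 libraries, where leaving out control replicate 1 gave 1.61 with an edgeR adjusted p of 0.0415 and leaving out control replicate 2 gave 0.09.

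**Figure D4:**
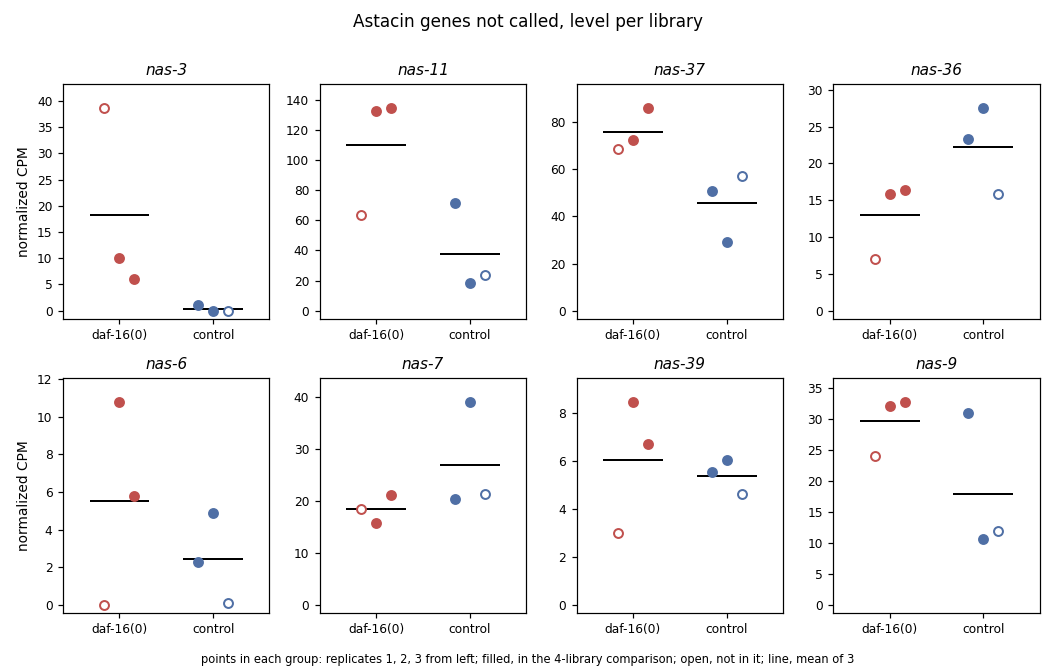
Normalized CPM (y axis of each panel, linear from 0) of 8 astacin genes in the *daf-16(0)* and control libraries (x axis). edgeR with TMM, its low-count filter and no library left out did not call them. Filled points mark the 4 libraries, open points the remaining ones, and a line the mean of 3. The *daf-16(0)* points of *nas-3* and *nas-37* lie above all control points, and the groups overlap for *nas-11*, *nas-36*, *nas-6*, *nas-7*, *nas-39* and *nas-9*.

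The 8 remaining tested members (*nas-1*, *nas-5*, *nas-12*, *nas-14*, *nas-15*, *nas-24*, *nas-25* and *nas-29*) were not called by edgeR and lay between 0 and 31 CPM in any library. Their log2 fold changes in the 4 libraries ran from -2.29 (*nas-24*) to 0.84 (*nas-15*), and in all 6, where *nas-25* was not tested, from -2.31 (*nas-24*) to 0.75 (*nas-29*). *nas-13*, at most 2.51 CPM, was not tested by edgeR and was not called by DESeq2 (adjusted p = 0.421 and 0.599).

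By subgroup, calls of lower expression in the 4 libraries took 1 of the 5 genes of subgroup I, 1 of the 10 of subgroup II, 3 of the 14 of subgroup III, 1 of the 2 of subgroup IV, 1 of the 4 of subgroup V and 0 of the 1 of subgroup VI. Of these, 4, 9, 8, 2, 4 and 1 genes were tested. The counts and medians cover *nas* names only, and leave out *hch-1* (*nas-34*) and *dpy-31* (*nas-35*), which fall in subgroup V by number. They also leave out *toh-1*, whose number lies between *nas-25* and *nas-27*, in subgroup III. The median log2 fold change was -2.18 in subgroup III and 0.37 in subgroup II, so that *nas-10* stood apart from the rest of its subgroup, where the other 8 tested genes ran from -0.68 (*nas-7*) to 1.6 (*nas-11*). In all 6 libraries the subgroups had 1, 1, 2, 1, 0 and 0 genes called lower.

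By position, 13 of the 36 astacin genes (36.1%) were on chromosome V and 8 (22.2%) on X, which hold 24.7% and 13.8% of all protein-coding genes. The subgroup III genes of chromosome V include 2 tandem groups. The first runs from *nas-16* to *nas-19* (11392320 to 11402690), in the order *nas-16*, *nas-18*, *nas-17* and *nas-19*, with a single other protein-coding gene among them. *nas-16*, *nas-18* and *nas-19* had no counts in any library, and *nas-17* had 5 counts in *daf-16(0)* replicate 3 and none elsewhere. *nas-2*, in subgroup I, was the remaining gene with no counts.

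The second tandem group holds *nas-20*, *nas-21* and *nas-22* (11470868 to 11477951), with 211 bases between the divergent *nas-20* and *nas-21* and 725 bases between *nas-21* and *nas-22*. *nas-20* had 318, 40 and 6 counts in *daf-16(0)* replicates 1 to 3, against 0, 0 and 223 counts in control replicates 1 to 3, so that the groups overlapped through control replicate 3. It was not tested by edgeR in the 4 libraries, where DESeq2 gave an adjusted p of 0.0419 and the mean in *daf-16(0)* was at least 6.32-fold above the floor of the 2 controls, and in all 6 the log2 fold change was 1.13 (SE 1.93, edgeR adjusted p = 0.727). *nas-21* had 31, 0 and 9 counts in *daf-16(0)* and none in control. *nas-22* had 9, 28 and 27 counts in *daf-16(0)* and none in control, so that its *daf-16(0)* mean was at least 6.21-fold above the floor of 3 counts per control library. For *nas-22* the adjusted p in the 4 libraries was 0.0714 by edgeR and 0.0216 by DESeq2, and in all 6, where edgeR did not test it, 0.0117 by DESeq2. *nas-22* shares 969 bases with *T11F9.7* on the same strand, which had no counts, and reads of neighbouring members with like sequence could be split between them by the counting.

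Besides the *nas* genes, 22 genes that act with or beside astacins in moulting and cuticle processing were examined. In the 4 libraries 21 were tested, 3 were called higher and 1 lower, and in all 6 libraries all 22 were tested, 5 were called higher and 0 lower, with medians of 0.23 and 0.32 on the log2 scale. Beside these counts stand 5.34% higher and 9.58% lower of all genes in the 4 libraries, and 5.07% and 7.39% in all 6. In the 4 libraries 0 were called higher without *daf-16(0)* replicate 2 or without replicate 3, and 7 without control replicate 1, and the number called lower was 0 to 3. In all 6 the number called higher was 1 to 5 with a library left out, and 3 were called lower without control replicate 3. Shares of all genes were not counted with a library left out. At an adjusted p alone, without the 2-fold rule, *dpy-31* also passed in all 6.

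Higher in both sets were *noah-1* and *noah-2*, which encode zona pellucida proteins of the apical matrix under the cuticle, and *mlt-10*, a gene needed for moulting. *noah-1* had 610, 603 and 660 CPM in *daf-16(0)*, against 182, 143 and 124 CPM in control, and a log2 fold change of 1.98 (edgeR adjusted p = 0.0139) in the 4 libraries. *noah-2* had 490, 466 and 530 CPM in *daf-16(0)*, against 186, 157 and 141 CPM in control (1.56, edgeR adjusted p = 0.0238). *mlt-10* had 278, 135 and 98.0 CPM in *daf-16(0)*, against 16.2, 1.48 and 8.83 CPM in control (3.77, edgeR adjusted p = 0.0471). None of the 3 overlapped between genotypes, and 21.3% of all genes tested were likewise higher throughout. Leaving out 1 of the 4 libraries, which leaves 1 library in a genotype, gave log2 fold changes of 1.82 to 2.15 for *noah-1*. They were 1.44 to 1.67 for *noah-2* and 2.86 to 6.29 for *mlt-10*. With the replicate block in all 6 libraries, the edgeR adjusted p was 0.0564 for *noah-1*, 0.0779 for *noah-2* and 0.0354 for *mlt-10*.

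*nhr-23*, a nuclear receptor that drives genes of the moult, and the cuticle collagen gene *sqt-3* were called higher by edgeR with all 6 libraries and not with the 4. *nhr-23* had 46.9, 44.1 and 52.3 CPM in *daf-16(0)*, against 26.8, 13.9 and 13.0 CPM in control (log2 fold change 1.42, edgeR adjusted p = 0.0446). *sqt-3* had 1019, 767 and 718 CPM in *daf-16(0)*, against 372, 336 and 312 CPM in control (1.3, edgeR adjusted p = 0.0365). The calls were lost for *nhr-23* without any 1 of the *daf-16(0)* libraries or without control replicate 2 (edgeR adjusted p = 0.0983 to 0.137), and for *sqt-3* without any 1 of the libraries other than control replicate 3 (edgeR adjusted p = 0.0761 to 0.120). In the 4 libraries their edgeR adjusted p-values were 0.0797 for *nhr-23* and 0.0591 for *sqt-3*. There *nhr-23* passed with DESeq2 (0.0496), with no filter on low counts (0.0313) and without control replicate 1 (0.0208), and *sqt-3* did so at 0.00345, 0.0448 and 0.0383.

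*dpy-31*, whose product cuts the procollagen made by *sqt-3*, had 72.6, 82.2 and 65.5 CPM in *daf-16(0)*, against 143, 169 and 126 CPM in control. It was lower throughout, an order found in 19.6% of all genes tested. Its log2 fold change was -1.06 (edgeR adjusted p = 0.0614) in the 4 libraries and -0.99 (edgeR adjusted p = 0.0487), short of 2-fold, in all 6, and the enzyme and its substrate thus had log2 fold changes of opposite sign, a difference that was not tested. *toh-1*, an astacin related to tolloid, had 27.2, 68.7 and 60.3 CPM in *daf-16(0)*, against 115.2, 200 and 45.1 CPM in control (-1.28, edgeR adjusted p = 0.0641 in the 4 libraries). *hch-1*, the hatching astacin, was low, with 2.09, 3.85 and 0 CPM in *daf-16(0)* and 0.14, 0 and 0.97 CPM in control. *bli-4* encodes a proprotein convertase of the kind that activates secreted proteins. It was the single gene of the list called lower in the 4 libraries with the edgeR filter and fit named above. It had 213, 239 and 290 CPM in *daf-16(0)* replicates 1 to 3, against 711, 727 and 239 CPM in control replicates 1 to 3. Its log2 fold change was -1.42 in the 4 libraries (edgeR adjusted p = 0.0321) and -1.18 in all 6 (edgeR adjusted p = 0.126), where control replicate 3 lay among the *daf-16(0)* libraries as it did for *nas-30* and *nas-38*, and it was -1.52 with an edgeR adjusted p of 0.0136 without that library. The call in the 4 libraries was lost without *daf-16(0)* replicate 2 (edgeR adjusted p = 0.230) and without *daf-16(0)* replicate 3 (edgeR adjusted p = 0.120).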

How the data were processed

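The authors trimmed reads with Trimmomatic 0.39, kept reads of at least 36 bases, aligned them to WBcel235 with STAR 2.4.2a and deposited expected counts per gene estimated with RSEM 2.1, not normalized, for 6 libraries (tools per the labels and the study's methods). Their tables of normalized counts and of DESeq2 fold changes, p-values and adjusted p-values for 4 libraries were not used. Expected counts of 20191 protein-coding genes were rounded to whole numbers (1.57% to 2.78% of values per library were not whole). edgeR 4.0.16 in R 4.3.3 was fitted with genotype as the only term, after TMM normalization and filterByExpr. Standard errors are the fold change over the root of the F statistic.

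The members, lists and tests were chosen with earlier results of these data known. Named with values were called members, members with a known mutant role, the 5 highest per kilobase and those above the floor in every library whose sign differed between the sets. *nas-3*, *nas-9*, *nas-20*, *nas-21*, *nas-22*, *nas-27*, *nas-32*, *nas-33*, the genes without counts, and the moulting genes given with values were chosen after their values were seen. Alternatives were DESeq2 1.42.0, RLE normalization, no filter, a mean of at least 10 counts, a log2 threshold of 2, a replicate block, and leaving out each library. For the moulting genes they were added after the data were seen. Coordinates are those of the deposited table. Exon lengths come from Ensembl release 115 on the same build, whose gene bounds equal the deposited ones for 7 of the 36 genes. Sequences were not analysed here.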

Additional observations from a re-analysis of the deposited data

How the results depend on the processing

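*nas-10* and *nas-28* kept their calls under all alternatives in both sets of libraries. No astacin was called higher by edgeR with TMM, its low-count filter and no library left out. In the 4 libraries 4 were with DESeq2 and 2 by edgeR with no filter on low counts. In all 6 libraries 3 were with DESeq2. By edgeR there, 1 was with RLE normalization, 1 with no filter and 0 to 2 with a library left out. The count called lower was 3 to 7 with 1 of the 4 libraries left out, with 3 without *daf-16(0)* replicate 2, against 7 with all 4. It was 2 to 8 with 1 of the 6 left out, with 8 without control replicate 3, 3 without *daf-16(0)* replicate 3 and 2 without any 1 of the others, against 5 with all 6. Replicate numbers did not pair the libraries: deviations from the genotype means correlated at -0.05, -0.01 and -0.23 for numbers 1 to 3, and no library correlated best with its own number. With the replicate block, 3 genes were called lower in all 6 libraries and the median log2 fold change was -0.48. In the 4 libraries only number 2 is shared, and no block was fitted. The median of the 4 libraries was 0.11 with DESeq2, 0.12 with no filter and -0.46 to -0.12 with a library left out, and that of all 6 was -0.65 to 0.15 with a library left out. More low genes are tested by DESeq2 and with no filter, and the cause of the other shifts was not tested.

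Signs turned for *nas-8* in the 4 libraries without *daf-16(0)* replicate 3 (-0.20) or control replicate 1 (-0.24, range with a library left out -0.24 to 0.89) and in all 6 without *daf-16(0)* replicate 1 (0.48) or control replicate 2 (0.52, range -0.77 to 0.52), for *nas-20* in all 6 without *daf-16(0)* replicate 1 (-0.74, range -0.74 to 9.53), and for *nas-39* in all 6 without *daf-16(0)* replicate 2 (-0.13, range -0.13 to 0.50). Over the named genes, 169 values of the 4 libraries kept sign and side of the adjusted p, 15 lost it, 22 gained it and 2 changed sign, and for all 6 libraries the numbers were 237, 41, 14 and 4. The moulting genes called lower in the 4 libraries were 4 with DESeq2 and 4 with no filter, and those called higher were 5 and 6. In all 6 libraries DESeq2 called 8 of them higher and the replicate block 1. Of all genes it tested, DESeq2 called 13.6% lower and 10.6% higher in the 4 libraries, and 10.1% higher in all 6. Shares of all genes were not counted with RLE normalization, with no filter, with the block or with a library left out. Genes near the floor of 3 counts could not be compared.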
